A study of Homo sapiens with 6 samples.

Results

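The AP-1 genes described here are FOSL2, FOS, JUN, JUNB and JUND, taken by name from a table of read counts of F36P cells. All 5 were among its 14821 genes, and all 5 passed the low-count filter that left 14203 tested genes. F36P is an established line of human erythroid leukaemia cells, used here to ask how ERG holds back erythroid differentiation. In 3 libraries the cells had been transduced with the retroviral plasmid MSCV-PIG-AM-ERG, which overexpresses the ETS family factor ERG, and in 3 libraries with the plasmid MSCV-PIG alone (vector, genotype WT in the labels). Both groups went through 4 days of selection at 1 µg/ml puromycin, and poly(A) RNA of bulk cultures was sequenced. The titles call the replicates biological but name no clones, cultures or transductions, so the p-values speak of the spread among these libraries, which may be in part technical.

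AP-1 is a dimer of leucine zipper proteins. A JUN protein pairs with itself or with a FOS protein, whereas FOS proteins do not form stable dimers with each other. FOS and JUN are classical immediate early genes, switched on briefly by growth factors and stress through MAP kinases, while FOSL2, also called FRA2, and JUND are often present for longer. In blood cells AP-1 is known for its part in myeloid and megakaryocytic differentiation.

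The libraries held 10257141 to 14803031 counts. ERG itself, at 97.4, 103 and 104 CPM with the ERG plasmid, stood at 28.1, 14.6 and 22.4 CPM with vector (CPM are read counts scaled to library size, here after TMM factors, which correct for library composition). ERG replicates 1 and 2 were much closer to each other than any other pair (chi-square of 2.20 per degree of freedom over genes, against 21.6 to 86.9), and the calls of named genes are given without each. Without ERG replicate 1 or 2, 0 genes passed in edgeR (1278 and 1256 at an unadjusted p under 0.05, 410 and 411 with DESeq2). Across all genes the libraries resembled each other in 2 sets that cut across the groups, ERG replicates 1 and 2 with vector replicate 1 (set A) and ERG replicate 3 with vector replicates 2 and 3 (set B). All 15 erythroid markers looked for were in the table, among them GATA1 and EPOR, and 11 of 22 markers of other blood, endothelial, stromal and epithelial cells; CD3E, CD14, MPO and VWF were not listed. The summed level of these 11 was 246 to 428 CPM in ERG and 169 to 362 CPM in vector libraries, and their part in the results was not tested. In bulk RNA, fewer cells of a type and less RNA per cell cannot be told apart.

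FOSL2 was the only one of the 5 AP-1 genes called different, and it rose 2.81-fold with ERG. It was at 105, 114 and 76.1 CPM in ERG replicates 1, 2 and 3 and at 46.6, 22.7 and 36.1 CPM in vector replicates 1, 2 and 3. Every ERG library lay above every vector library, with ERG replicate 3 lowest in its group and vector replicate 2 lowest of all. The means were 98.5 ± 19.8 and 35.1 ± 12.0 CPM (SD, n = 3 each), a log2 fold change of 1.49 (SE 0.28, 95% interval 0.84 to 2.14) with an adjusted p of 0.0442 in edgeR's quasi-likelihood test over all genes. So 1 of 5 members passed, against 2.20% of all tested genes (1.47% higher and 0.732% lower with ERG), and FOSL2 ranked 277 of the 313 genes called, near the threshold. In GENCODE release 29 (hg38), FOSL2 spans 28392448 to 28417312 of chromosome 2, and no exon of another annotated gene overlaps its exons.

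The size of the FOSL2 difference was alike within the library sets, but its call depended on single libraries. Within set A the difference of log2 CPM was 1.23 and within set B 1.41, each from 3 libraries and given without a test. Without ERG replicate 1 or 2 the edgeR log2 fold change was 1.44 and 1.37 and did not pass (adjusted p = 0.182 and 0.195). Without vector replicate 2 or 3 it was 1.25 and 1.51 and again did not pass (adjusted p = 0.114 and 0.145). With ERG replicates 1 and 2 summed to 1 library it was 1.41 (edgeR adjusted p = 0.191). DESeq2 called FOSL2 in the summed setting and without each of the 6 libraries (adjusted p = 1.7e-07 to 0.0103), a test added after the data were seen.

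The promoter of FOSL2 is shown because this is the member that rose. The stretch runs from 250 bases before to 30 after the RefSeq start, chr2:28392608-28392887 on GRCh38.p14, plus strand, 5′ to 3′, with motif matches in capitals. GENCODE places the gene's first base further upstream, at 28392448, so the whole stretch lies within the annotated gene and may be transcribed.
FOSL2: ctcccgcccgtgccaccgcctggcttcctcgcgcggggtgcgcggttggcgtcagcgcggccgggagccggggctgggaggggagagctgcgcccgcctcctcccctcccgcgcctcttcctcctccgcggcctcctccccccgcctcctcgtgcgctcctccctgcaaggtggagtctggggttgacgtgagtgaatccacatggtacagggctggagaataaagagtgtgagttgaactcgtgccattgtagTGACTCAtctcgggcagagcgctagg
The capitals are the AP-1 site TGANTCA, as TGACTCA from base 5 to base 11 after the start, on the plus strand (both strands are the same but for the middle base). In 35116 RefSeq windows of 250 bases before to 50 after a start, 7.71% hold TGANTCA on either strand. Also searched on both strands were the ETS cores CCGGAA (in 17.2% of windows) and CAGGAA (28.4%), the cyclic AMP response element TGACGTCA (1.85%) and the serum response element in the form known from FOS (0.0342%), none of which occurs in the FOSL2 window. Other forms around the ETS letters GGAA were not searched, and the stretch holds GGAA on the minus strand, read as ttcc. A match is a description of letters and no evidence of binding.

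**Figure D1:**
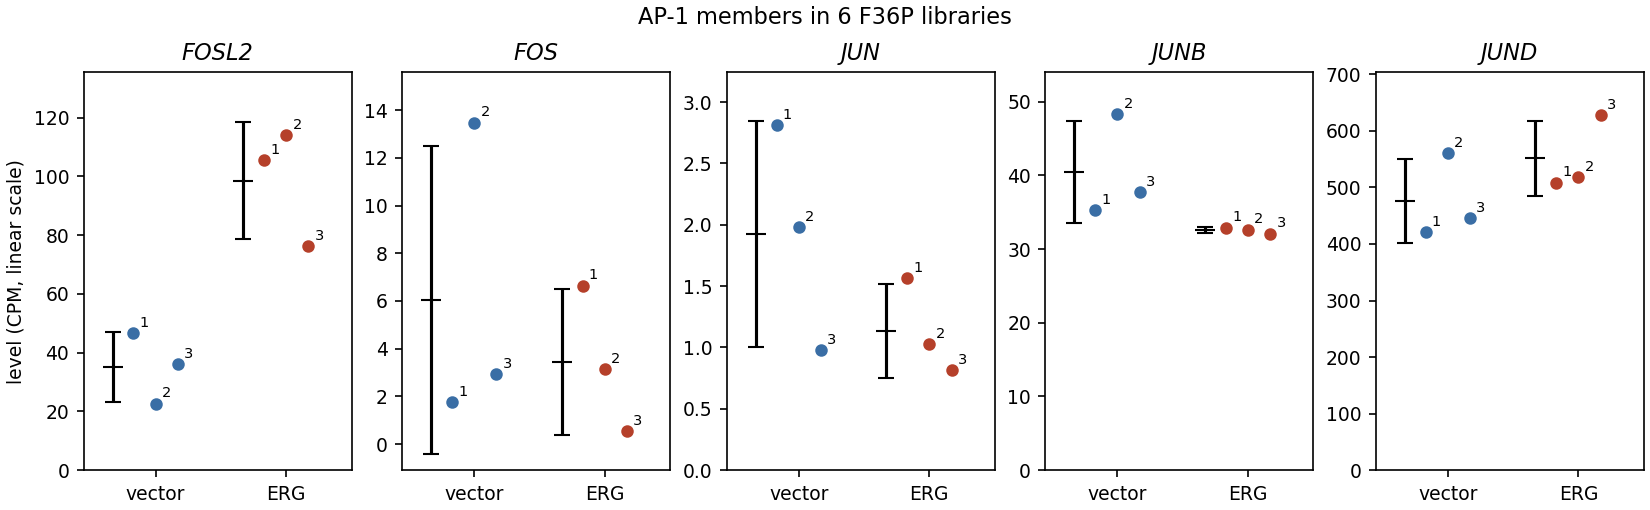
Levels of the 5 AP-1 genes in CPM on linear axes, 1 panel a gene with its own scale, for vector (blue) and ERG (red) libraries. Points are libraries with their replicate numbers and the bar beside them is mean ± SD (n = 3). FOSL2 is 76.1 to 114 CPM with ERG and 22.7 to 46.6 with vector, JUNB lies slightly lower with ERG, and the groups overlap for FOS, JUN and JUND.

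FOS, the founding FOS gene, varied more between replicates than between groups. It was at 6.64, 3.15 and 0.543 CPM in ERG replicates 1, 2 and 3 and at 1.76, 13.5 and 2.93 CPM in vector replicates 1, 2 and 3. Vector replicate 2 was the highest, ERG replicate 3 the lowest, and the groups overlapped over a 24.8-fold range. At least a 5-fold range was seen in 7.65% of all tested genes. Counts of FOS ran from 8 to 177 a library, and the exact Poisson 95% intervals, which cover counting error only, were 0.234 to 1.07 CPM in ERG replicate 3 and 11.6 to 15.6 CPM in vector replicate 2. The log2 fold change was -0.83 (95% interval -3.05 to 1.38, edgeR adjusted p = 0.703) and turned to 0.55 (adjusted p = 0.871) without vector replicate 2. Within set A FOS was higher with ERG by 1.31 on the log2 scale and within set B lower by a log2 difference of -3.21, a contrast that was not tested.

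FOSB, a close relative of FOS and the gene whose pattern over the 6 libraries was nearest to that of FOS, followed it. It was at 11.2, 6.03 and 3.39 CPM with ERG and 3.61, 20.7 and 5.48 CPM with vector. Nearness was measured as the root mean square difference of log2 CPM after each gene's mean over the 6 libraries was removed, and it was 0.58 between FOS and FOSB. The next gene, PLK2, a polo-like kinase, was at 0.85. FOS also differed between ERG replicates 1 and 2, the pair in which a typical gene differed by 1.06-fold. Of 11772 genes with at least 100 counts in that pair, 0.985% differed by at least 1.5-fold. FOS differed 2.11-fold and ranked 7, and FOSB 1.85-fold and ranked 16. DUSP1, an immediate early phosphatase that switches off MAP kinases, named after its value was seen, differed 2.13-fold and ranked 5. Other immediate early genes were close in this pair, with ATF3 at 18.1 and 18.2 CPM, IER2 at 206 and 198, ZFP36 at 16.8 and 15.6 and EGR1 at 3.67 and 3.49 CPM in ERG replicates 1 and 2. FOSL2, JUNB and JUND differed by ratios of 0.925, 1.01 and 0.982.

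The promoters of FOS and FOSB are shown since the 2 genes had like patterns. Both run over the 250 bases before the RefSeq start on GRCh38.p14, plus strand, at chr14:75278578-75278827 and chr19:45467746-45467995, with capitals as above. GENCODE starts FOS at 75278774, inside the FOS stretch, so the end of that stretch may be transcribed.
FOS: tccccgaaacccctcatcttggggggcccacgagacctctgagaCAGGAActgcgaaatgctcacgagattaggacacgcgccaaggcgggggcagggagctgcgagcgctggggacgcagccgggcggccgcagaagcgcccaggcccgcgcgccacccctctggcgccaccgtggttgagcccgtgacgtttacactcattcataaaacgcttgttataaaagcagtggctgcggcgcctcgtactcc
FOSB: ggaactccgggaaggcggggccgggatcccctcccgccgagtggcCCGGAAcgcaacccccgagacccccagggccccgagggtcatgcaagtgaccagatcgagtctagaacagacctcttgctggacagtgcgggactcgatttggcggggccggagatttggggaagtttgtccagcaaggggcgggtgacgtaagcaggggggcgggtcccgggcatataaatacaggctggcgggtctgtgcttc
In these stretches the FOS capitals are the ETS core CAGGAA, from base -206 to -201, and the FOSB capitals the ETS core CCGGAA, from base -205 to -200. Of the other members' windows, that of JUND holds 1 TGACGTCA, that of JUNB 1 CAGGAA on the minus strand, and that of JUN none of the motifs. The JUN window does hold tgacatca, which is near to TGACGTCA but not a match. Only exact letters within the windows were searched, so a missing match does not show that a gene lacks such a site.

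JUN, the founding JUN gene, had the lowest mean of the 5 in both groups, although FOS was lower in ERG replicate 3 and vector replicate 1. Its levels were 1.56, 1.03 and 0.814 CPM with ERG and 2.82, 1.98 and 0.978 CPM with vector, so 10 to 32 counts a library. The groups overlapped through vector replicate 3, and the log2 fold change of -0.77 did not pass (95% interval -1.89 to 0.35, edgeR adjusted p = 0.482). The interval holds both no change and a fall larger than the fitted one.

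JUNB, which often opposes JUN at shared target genes, was slightly lower with ERG, without passing. It was at 32.9, 32.6 and 32.1 CPM with ERG and at 35.3, 48.3 and 37.7 CPM with vector. All ERG libraries lay below all vector libraries, as with 9.54% of tested genes. FOSL2 and JUNB were the 2 of 5 members whose groups did not overlap, against 21.9% of all tested genes in either direction. The log2 fold change was -0.31 (95% interval -0.68 to 0.05, edgeR adjusted p = 0.383). The exons of JUNB overlap those of HOOK2, a gene on the other strand, over 259 bases, and since no source used here states the strand setting, their reads may not be told apart there. HOOK2 was at 22.1 ± 4.46 CPM with ERG and 21.2 ± 8.05 CPM with vector.

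JUND, the JUN gene most often found in resting cells, was by far the most abundant. Its levels were 509, 518 and 628 CPM with ERG against 421, 560 and 446 CPM with vector. The groups overlapped through vector replicate 2, and the log2 fold change was 0.21 (95% interval -0.19 to 0.62, edgeR adjusted p = 0.588), which leaves out a rise as large as the fitted value of FOSL2.

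Per kilobase of annotated exon, JUND made up 88.5% to 92.2% of the summed level of the 5 genes in every library. JUNB followed at 17.9 ± 0.225 CPM per kilobase with ERG and 22.2 ± 3.79 with vector. FOSL2 came after JUNB, at 13.8 ± 2.77 with ERG and 4.91 ± 1.68 with vector. FOS was at 1.06 ± 0.945 and 1.87 ± 1.99 and JUN at 0.321 ± 0.109 and 0.544 ± 0.26 CPM per kilobase. FOS and JUN did not differ beyond their spread, and in vector replicate 2 FOS (4.16) stood above FOSL2 (3.17). FOSL2 made up 4.78%, 5.09% and 2.91% of the 5 genes in the ERG libraries and 2.57%, 0.946% and 1.89% in the vector libraries. Among the FOS genes of the set, FOSL2 was thus above FOS in 5 of 6 libraries. The lengths are those of all annotated exons together, which may be longer than the transcripts the cells use.

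Within a library, the log2 CPM of FOSL2 minus the mean of the other 4 genes was 2.33, 2.83 and 2.82 with ERG and 1.45, -0.38 and 1.22 with vector. The difference between groups was 1.90, described without a test because the members were chosen with results known. The mean weighs all 4 genes alike, so FOS and JUN, at low counts and not called (log2 -0.83 and -0.77), enlarge this difference. Set against JUN, JUNB and JUND singly, FOSL2 was higher in each ERG library than in any vector library. These contrasts share the FOSL2 values, in which the groups did not overlap, and are not separate results. Set against FOS the groups overlapped, at 3.96, 5.11 and 6.77 with ERG and 4.61, 0.74 and 3.55 with vector.

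**Figure D2:**
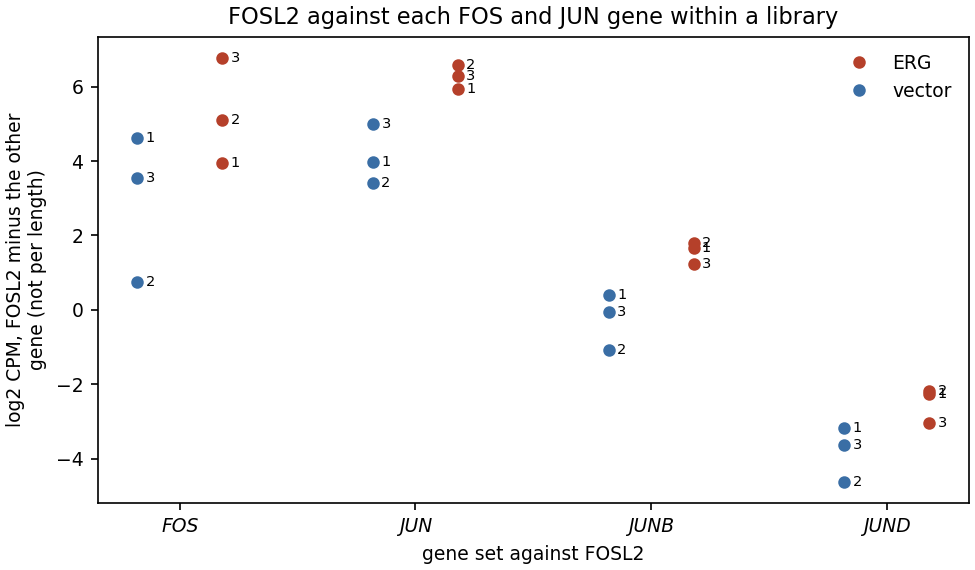
Difference of log2 CPM between FOSL2 and each of the other 4 genes within a library (vertical axis, not corrected for gene length), vector in blue and ERG in red, with replicate numbers. For JUN, JUNB and JUND the 3 ERG libraries stand above the 3 vector libraries, and for FOS they overlap.

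The genes with the pattern nearest to FOSL2 were TFEC, a transcription factor of the MITF family, ATP1B1, a sodium pump subunit, SYNJ2, an inositol phosphatase, MTURN and LOXL3, a lysyl oxidase. TFEC was at 73.2, 77.0 and 56.4 CPM with ERG and 33.5, 16.7 and 28.4 CPM with vector, a root mean square difference from FOSL2 of 0.07 on the log2 scale over 6 libraries. The other 4 were at 0.14 each. Of all tested genes 8 lay within 0.15 of FOSL2, where the median gene lay at 0.88, and 3 of these 8 passed. TFEC, ATP1B1 and LOXL3 passed (edgeR adjusted p = 0.0455, 0.0380 and 0.0354), while SYNJ2 and MTURN did not (0.0584 and 0.0670). Nearest to JUN were PLEKHH3 (0.18) and REC8 (0.19), to JUNB SGMS1 and LARP1B (0.04 each) and to JUND VWA8 (0.04) and YY2 (0.05). Genes with flat levels are near to many others, so the last 4 say little.

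**Figure D3:**
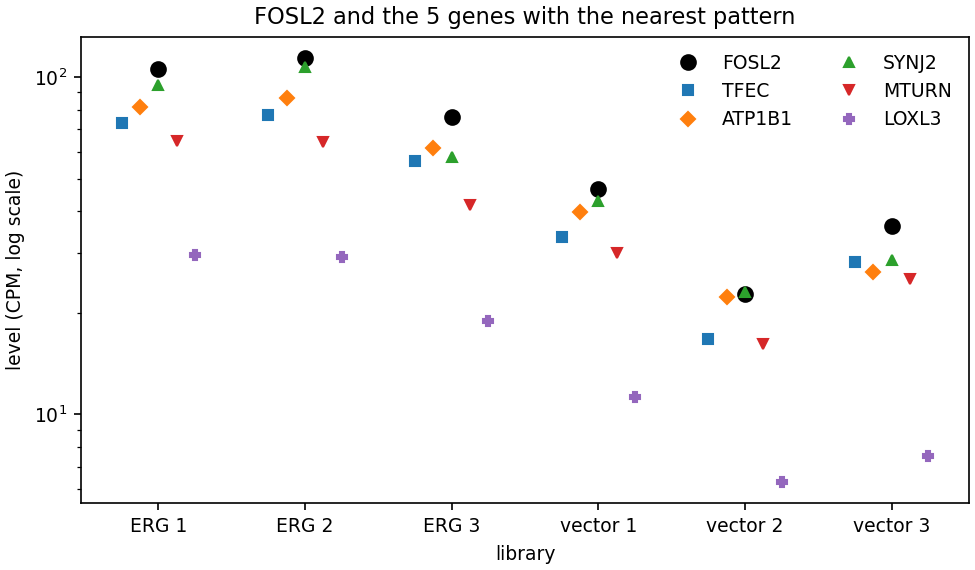
Levels in CPM (log axis) of FOSL2 and of the 5 genes with the nearest pattern in each library. All 6 genes have their lowest level in vector replicate 2, and TFEC runs from 16.7 to 77.0 CPM where FOSL2 runs from 22.7 to 114.

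None of the 16 tested relatives and dimer partners of AP-1 passed, and their median log2 fold change was 0.15 against -0.01 over all tested genes. With edgeR 1 of these 16 had an unadjusted p under 0.05, CREB1. The highest were ATF4, the translation-controlled stress factor (639 ± 203 CPM with ERG, 550 ± 268 with vector), and NFE2, an erythroid and megakaryocytic leucine zipper factor that pairs with small MAF proteins (291 ± 10.8 and 329 ± 51.9 CPM). FOSL1, or FRA1, the closest relative of FOSL2, was at 11.6, 8.63 and 18.3 CPM with ERG and 10.9, 17.7 and 22.9 CPM with vector (log2 -0.42, 95% interval -1.24 to 0.41, edgeR adjusted p = 0.604).

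**Figure D4:**
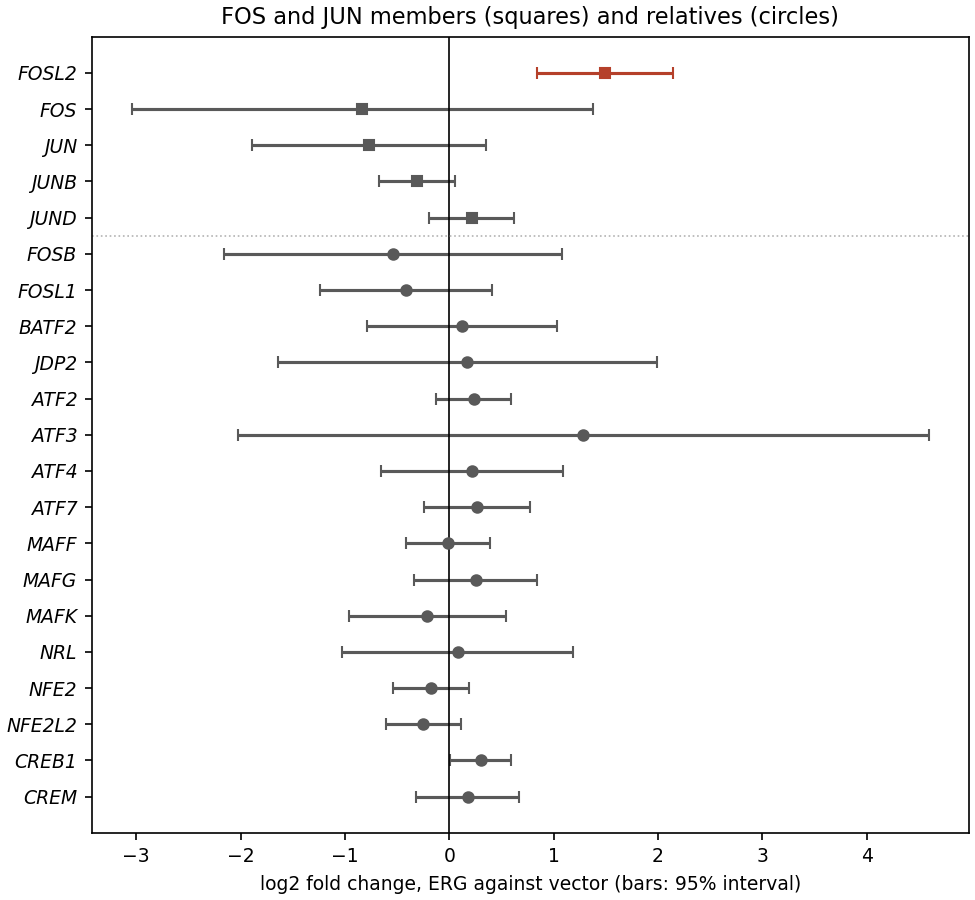
Log2 fold change of ERG against vector with 95% intervals from edgeR for the 5 AP-1 members (squares) and 16 relatives (circles). FOSL2, in red with an adjusted p of 0.0442, is the one gene that passed, and the intervals of FOS (-3.05 to 1.38) and ATF3 (-2.03 to 4.60) are wide.

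Of the 16 relatives, 9 had library sets that did not overlap and 1 had groups that did not overlap, where 43.0% and 21.9% of all tested genes did so. ATF3, a stress-induced partner of JUN proteins, was at 18.1, 18.2 and 14.1 CPM in ERG replicates 1 and 2 and vector replicate 1 and at 0.543, 0.913 and 0.0978 CPM in the set B libraries. JDP2, a repressor of AP-1, was 4.41-fold and ATF4 1.98-fold higher in set A by the mean of log2 CPM, with no overlap. EGR1, an immediate early zinc finger factor, was 6.21-fold higher in set B. Of the 5 members 0 had sets that did not overlap. The sets were defined from these libraries, so these are descriptions, and ATF3, JDP2 and EGR1 were named after their values were seen. FOSL2 itself was at 105, 114 and 46.6 CPM in set A and 76.1, 22.7 and 36.1 CPM in set B.

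Genes of heat shock and handling stress were split by set too. The 12 listed, which include the DNA damage and stress genes GADD45A, GADD45B and DDIT3, summed to 1766 to 2105 CPM in set A and 6295 to 7534 CPM in set B, 8 of them, all heat shock genes or their cofactors, higher in every set B library. DDIT3 was 6.09-fold and GADD45A 1.99-fold higher in set A, with no overlap. Over all 14203 tested genes 3212 were higher in every set B library and 2900 in every set A library. HSPA8 was at 428, 416 and 572 CPM in set A and 2155, 2067 and 2466 CPM in set B, and HSP90AA1 at 758, 738 and 829 against 2995, 2757 and 3303 CPM. Neither differed between ERG and vector beyond the spread (edgeR adjusted p = 0.658 and 0.693), and 0 of the 12 passed (1 at an unadjusted p under 0.05). The part of this split in the values of FOS, ATF3 and EGR1 was not tested.

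**Figure D5:**
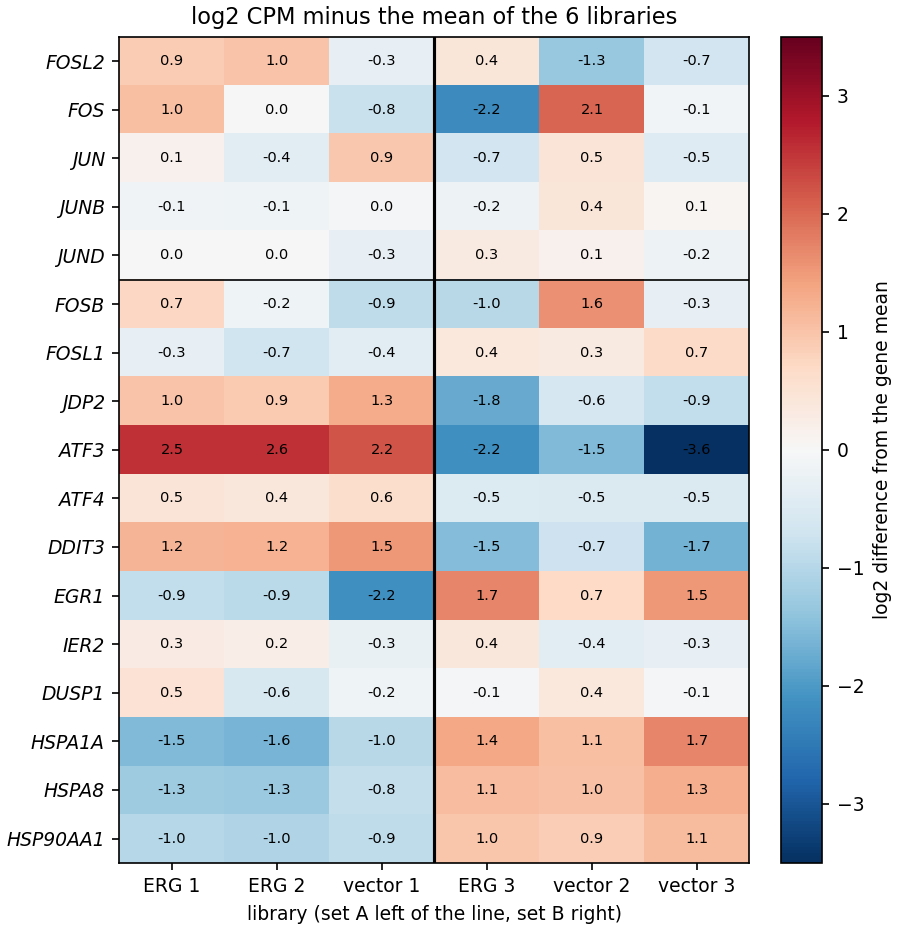
Log2 CPM minus the mean of the 6 libraries for the AP-1 members (above the horizontal line), relatives, immediate early and heat shock genes (rows) in each library (columns, set A left and set B right of the vertical line). ATF3 is above its mean in set A and below it in set B, HSPA1A the reverse, and FOSL2 is above its mean in all ERG libraries and below it in all vector libraries.

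Neither list of MAP kinase signalling genes upstream of AP-1 held a called gene. Of all tested genes 2.20% were called, a share at which lists of this size may hold none. In the MAP kinase cascade 0 of 28 tested genes passed (median log2 -0.01, 5 at an unadjusted p under 0.05 in edgeR, where 2260 of all 14203 tested genes were). The most abundant were MAP2K2, the kinase MEK2 (200 ± 2.60 and 270 ± 55.4 CPM with ERG and vector, adjusted p = 0.272), and RPS6KA1, a kinase activated by ERK (188 ± 8.55 and 195 ± 23.6 CPM). Among brakes of the cascade 0 of 11 passed (median 0.15, 3 at an unadjusted p under 0.05), with DUSP7 at 67.8 ± 5.08 and 68.4 ± 8.13 CPM and NF1, a brake of RAS, at 45.4, 52.9 and 36.9 CPM with ERG and 35.7, 45.9 and 43.4 CPM with vector. Without overlap of the groups, 2 cascade genes were higher and 3 lower with ERG, and 4 brakes were higher and 0 lower. Of all tested genes 12.3% were higher and 9.54% lower in this way. MAPK11 was 3.13-fold higher (edgeR adjusted p = 0.0778) and DUSP5 2.15-fold higher (0.0794), both named after their values were seen.

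Of 13 regulators acting at FOS and JUN promoters (median 0.11), 1 rose, where 1.47% of all tested genes did. This was ELK3, an ETS factor that binds with SRF at serum response elements. ELK3 was at 23.7, 20.6 and 25.7 CPM with ERG and 6.33, 7.54 and 10.1 CPM with vector. The rise was 2.92-fold (log2 1.55, SE 0.22, edgeR adjusted p = 0.0206). It did not pass when ERG replicate 1, ERG replicate 2 or vector replicate 2 was left out (adjusted p = 0.116, 0.107 and 0.0951). Of 12 genes for the turnover and cofactors of AP-1 proteins 0 passed in edgeR (median 0.08, 1 at an unadjusted p under 0.05), the most abundant being NACA, a coactivator of JUN, and CREBBP, the acetyltransferase CBP, at 206 ± 20.9 and 166 ± 17.1 CPM.

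Of 15 tested immediate early genes 0 passed (median 0.10, 5 at an unadjusted p under 0.05 in edgeR). MYC was at 682 ± 17.5 with ERG and 927 ± 98.3 CPM with vector (adjusted p = 0.211) and MCL1, a survival factor, at 230 ± 26.9 and 215 ± 25.3 CPM. IER2, named after its value was seen, was at 206, 198 and 221 CPM with ERG and 140, 126 and 138 CPM with vector, just outside the threshold (log2 0.63, edgeR adjusted p = 0.0504).

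Among 18 tested genes known as AP-1 targets in other cells (median 0.24), 1 rose and 1 fell, where 1.47% and 0.732% of all tested genes did. All ERG libraries lay above all vector libraries in 6 of the 18 and below them in 3, against 12.3% and 9.54% of all tested genes. CD44, the hyaluronan receptor, was at 248, 238 and 197 CPM with ERG and 84.0, 38.7 and 70.9 CPM with vector, 3.53-fold higher (log2 1.82, SE 0.28, edgeR adjusted p = 0.0251). LMNA, which encodes the nuclear lamins A and C, was at 113, 116 and 146 CPM with ERG and 236, 265 and 209 CPM with vector and fell 1.89-fold (adjusted p = 0.0365). Neither passed in edgeR without ERG replicate 1 (adjusted p = 0.116 for CD44 and 0.214 for LMNA), ERG replicate 2 (0.123 and 0.212), vector replicate 2 (0.0538 and 0.135) or vector replicate 3 (0.0921 and 0.0855).

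Of the 15 erythroid markers 4 fell with ERG and 0 rose, against 0.732% of all tested genes that fell, and 10 of the 15 had an unadjusted p under 0.05. The falls were 4.50-fold for HBG2 and 3.99-fold for HBG1, both fetal globins (edgeR adjusted p = 0.0318 and 0.0418), 2.47-fold for EPOR, the erythropoietin receptor (0.0100), and 1.97-fold for KLF1, an erythroid transcription factor (0.0423). In edgeR, HBG2, HBG1 and KLF1 did not pass without ERG replicate 1 (adjusted p = 0.182, 0.182 and 0.234), ERG replicate 2 (0.176, 0.173 and 0.230), vector replicate 2 (0.118, 0.149 and 0.140) or vector replicate 3 (0.104, 0.120 and 0.127), nor KLF1 without vector replicate 1 (0.0526). EPOR did not pass when ERG replicate 1, ERG replicate 2 or vector replicate 2 was left out (edgeR adjusted p = 0.0777, 0.0831 and 0.0538). Reads of HBG1 and HBG2, whose sequences are almost the same, may be shared out wrongly between them. Of the 9 tested markers of other cells 1 passed and rose, where 1.47% of all tested genes did. This was PECAM1, an adhesion molecule of endothelial cells and platelets, which rose 3.87-fold (edgeR adjusted p = 0.0153). It did not pass in edgeR without ERG replicate 1, ERG replicate 2, vector replicate 2 or vector replicate 3 (adjusted p = 0.0824, 0.0910, 0.0820 and 0.0667). Of the 9, 7 had an unadjusted p under 0.05 in edgeR, as had 2260 of all 14203 tested genes. Besides PECAM1, CSF3R and CD79A were higher with ERG, with overlapping groups and without passing (log2 1.77 and 1.02). The other 4, LYZ, GNLY, COL1A1 and EPCAM, were lower in every ERG library than in any vector library without passing (log2 -0.81, -1.26, -1.26 and -1.04). Such a fall without overlap was seen in 9.54% of all tested genes. EPCAM had only 7 to 29 counts a library.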

How the data were processed

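Poly(A) RNA was sequenced from 3 ERG and 3 vector samples. The deposited table, though called CPM, holds whole-number counts per gene whose column totals differ. The submitters' processing notes name the build hg38 and the tool edgeR 3.32.1. Aligner, counter, annotation and strand setting are not given in the sources used here. Control columns, headed NC, were taken as vector, the only other group, with matching replicate numbers, and 0 columns were unused. Genes with at least 1 CPM in 3 libraries were tested with edgeR 4.0.16 (R 4.3.3), TMM and the quasi-likelihood test, two-sided, with Benjamini-Hochberg adjustment at 0.05 over all genes; the SE is the log2 fold change over the root of F. The script was tested on simulated counts. Members, lists and library sets were chosen with earlier results of these data known. Named were the members, up to 4 called genes a list or else its 2 most abundant, and the nearest patterns (at least 5 CPM, prior count 2, no unnamed loci or pseudogenes). Positions and exon lengths are from GENCODE release 29, promoters from RefSeq on GRCh38.p14 (FOSL2, FOS, FOSB, JUN, JUNB and JUND matched). Alternatives used DESeq2 1.42.0, limma 3.58.1, other scalings, no filter, a replicate block, a set term, ERG replicates 1 and 2 summed and each library left out. The replicate numbers did not pair the samples (closing section).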

Additional observations from a re-analysis of the deposited data

How the results depend on the processing

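Genes called, 313 with all libraries, came to 1006 with DESeq2, 905 with the replicate block, 1869 with a term for the library set and 0 in edgeR with ERG replicates 1 and 2 summed (1277 at an unadjusted p under 0.05, 422 with DESeq2); with 1 library left out they ranged from 0 to 441. Genes of the other lists called, 8 in all, came to 26, 27, 41 and 0 in those settings (16 with DESeq2 when summed) and 0 to 15 with 1 library left out. AP-1 members called, 1 in all, came to 0 when summed (1 at an unadjusted p under 0.05, 1 with DESeq2) and 0 to 1 with 1 library left out. FOSL2 passed in all 8 alternatives that kept the 6 libraries apart, with adjusted p from 7.9e-05 (DESeq2) to 0.04997 (edgeR, upper-quartile scaling). Its log2 fold change was 1.41 when summed and 1.25 to 1.75 with 1 library left out, positive in all 15 alternatives. FOS ranged from -1.72 to 0.55 with 1 library left out and turned sign only without vector replicate 2. JUN, JUNB and JUND kept their sign in all 15 and passed in none. The fitted change of FOSL2 minus the mean of the other 4 was 1.91 with all libraries. Over the 15 it ranged from 1.26 (without vector replicate 2) to 2.24 (without vector replicate 1), so it depended on single libraries. Over the scalings the median gene lay between -0.02 and 0.04 on the log2 scale. Same-numbered samples did not all deviate together (r = 0.63, -0.28 and 0.59 for numbers 1, 2 and 3), so the replicate block is not a pairing by design; under it FOSL2 had a log2 fold change of 1.52 (edgeR adjusted p = 0.008). ERG replicate 3 deviated most like vector replicate 3, and ERG replicates 1 and 2 both like vector replicate 1. The cause of the lost calls was not tested. The p-values with the set term are too low where the sets were chosen on these libraries. FOS and JUN had 8 to 177 counts a library, and whether depth limits their comparison was not tested.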
